A study of Mus musculus with 11 samples.

Results

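The 91 potassium channel genes described here were taken from the 38406 gene symbols of the count table by name. Every symbol that begins with Kcn, goes on in letters and ends in a number was kept, with Kcnj8 left out. The set holds pore-forming subunits and their accessory subunits. By role it has 17 Kcna, Kcnb, Kcnc and Kcnd voltage-gated subunits, 10 modifier subunits (Kcnf, Kcng, Kcns, Kcnv), 5 Kcnq and 8 Kcnh subunits, 7 Kcnab and Kcnip subunits, 4 Kcne subunits, 8 calcium- or sodium-activated channels, 4 Kcnmb subunits, 14 inward rectifiers (Kcnj) and 14 tandem-pore channels (Kcnk). The rule uses the symbols only, but it was set with earlier results of these data known. At least 1 count was found for 85 of them, 56 passed the low-count filter and were tested, and 23 were called in at least 1 comparison.

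The genes were measured by 3′ mRNA sequencing in 11 libraries of fresh-frozen cerebellar tumours from CD1 mice, in 4 medulloblastoma models. In the N1ICD tumours (n = 3) MYC and Gfi1 were joined by N1ICD, the active inner fragment of Notch1, and all 3 were expressed in Math1-positive cells. In the S100b-cell tumours (n = 3) MYC and Gfi1 were expressed in S100b-positive cells. The MYC/Otx2 tumours (n = 3) and the MYC/Gfi1 tumours (n = 2) carried those oncogene pairs constitutively and are described by the series as earlier Group 3 models. By the labels all 4 models carry MYC. The N1ICD tumours differ from the S100b-cell tumours both in N1ICD and in the cells that express the oncogenes, so these cannot be told apart. The labels name no sorting of cells, and the cell names say where the oncogenes were expressed. Mouse Myc had 1, 3 and 6 counts in the N1ICD libraries, 65, 29 and 48 in the S100b-cell libraries, 903, 253 and 575 in the MYC/Otx2 libraries, and 236 and 76 in the MYC/Gfi1 libraries. Gfi1 had 11, 2 and 12 counts in the N1ICD libraries, 215, 30 and 51 in the S100b-cell libraries, 2, 0 and 2 in the MYC/Otx2 libraries, and 31 and 21 in the MYC/Gfi1 libraries. Otx2 had 97, 341 and 839 counts in the MYC/Otx2 libraries and 0 to 40 in the others, and Notch1 had 0 to 7 counts in every library. The labels do not say whether the introduced genes carry the 3′ ends counted under these symbols, so low counts do not check a label. Atoh1, the gene of Math1, had 0 counts in each N1ICD and each MYC/Otx2 library. It had 5, 1 and 0 counts in the S100b-cell libraries and 8 and 0 in the MYC/Gfi1 libraries. S100b had 19, 401 and 816 counts in the S100b-cell libraries and 26, 53 and 75 in the N1ICD libraries. It had 193, 591 and 40 counts in the MYC/Otx2 libraries and 220 and 3834 in the MYC/Gfi1 libraries.

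Potassium channels let potassium leave or enter a cell through a selective pore and so set its resting voltage and its firing. Voltage-gated subunits repolarise neurons after an action potential, inward rectifiers and tandem-pore channels hold the resting voltage, and calcium-activated channels link firing to calcium. Accessory subunits change the gating, trafficking or drug response of the pores they bind. In the cerebellum many of these genes are known for the firing of granule cells and Purkinje cells, and others for smooth muscle or glia.

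Library totals were 2.58 to 3.38 M counts in the N1ICD tumours, 12.8 to 15.2 M in the S100b-cell tumours, 6.97 to 8.33 M in the MYC/Otx2 tumours, and 6.53 and 7.53 M in the MYC/Gfi1 tumours. A total of 3 counts over a group, taken as the limit that a count of 0 allows, was 0.391 CPM in the N1ICD, 0.0702 in the S100b-cell, 0.126 in the MYC/Otx2 and 0.194 in the MYC/Gfi1 tumours. This limit covers counting error only. Mitochondrially encoded genes took 23.2 to 27.6% of counts in the N1ICD, 14.7 to 18.5% in the S100b-cell, 5.18 to 5.74% in the MYC/Otx2, and 5.96 and 6.00% in the MYC/Gfi1 libraries. Library names follow 1 style in the constitutive groups, another in the S100b-cell group and another in the N1ICD group, so effects of a library set and of these groups cannot be told apart. MYC/Gfi1 replicate 2 stood apart from replicate 1. In it 9 neuronal markers summed to 3420 CPM, against 646 CPM in replicate 1. The sums were 2520 against 41.8 CPM for 6 mature granule cell markers, and 1720 against 26.3 CPM for Purkinje cell markers. Of the Purkinje cell list, Pcp2 was at 0.145 CPM in replicate 2 and 0 in replicate 1. Pvalb, Calb1, Car8, Itpr1 and Slc1a6 had 482, 440, 402, 286 and 105 CPM in replicate 2. The sums were 5080 against 489 CPM for astroglial and 784 against 256 CPM for oligodendrocyte markers. Aldoc supplied 4280 CPM of the astroglial sum in replicate 2 and 256 CPM in replicate 1. Gja1 was lower in replicate 2, at 3.49 against 22.7 CPM, and every other gene of that list was higher there. Mural, endothelial and microglial sums were also higher in replicate 2, and the photoreceptor sum was lower. CPM here are counts scaled to a common total, the TMM-scaled total over the tested genes.

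The promoters of 4 genes that set models apart are shown because the oncogenes include transcription factors. They were chosen after the values were seen. Each runs from 250 bases before to 50 after a RefSeq transcription start (GRCm38.p6), 5′ to 3′ on the gene's strand. Kcnj3 differed between every pair of models, Kcne2 and Kcnip2 were highest in the MYC/Otx2 tumours and Kcnmb1 in the N1ICD tumours.
Kcnj3 (chr2:55435720-55436019, plus strand): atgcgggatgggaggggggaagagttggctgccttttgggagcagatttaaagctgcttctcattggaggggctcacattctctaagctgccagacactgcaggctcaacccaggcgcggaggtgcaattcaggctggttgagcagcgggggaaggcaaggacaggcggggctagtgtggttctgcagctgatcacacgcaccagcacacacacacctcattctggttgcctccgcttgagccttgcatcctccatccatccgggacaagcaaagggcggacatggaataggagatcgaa
Kcne2 (chr16:92292139-92292438, plus strand): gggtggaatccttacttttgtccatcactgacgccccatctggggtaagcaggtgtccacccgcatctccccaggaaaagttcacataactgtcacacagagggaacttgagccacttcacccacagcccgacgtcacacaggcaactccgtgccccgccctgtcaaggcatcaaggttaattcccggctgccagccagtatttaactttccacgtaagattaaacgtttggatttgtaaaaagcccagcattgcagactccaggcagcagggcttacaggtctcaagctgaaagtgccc
Kcnip2 (chr19:45816014-45816313, minus strand): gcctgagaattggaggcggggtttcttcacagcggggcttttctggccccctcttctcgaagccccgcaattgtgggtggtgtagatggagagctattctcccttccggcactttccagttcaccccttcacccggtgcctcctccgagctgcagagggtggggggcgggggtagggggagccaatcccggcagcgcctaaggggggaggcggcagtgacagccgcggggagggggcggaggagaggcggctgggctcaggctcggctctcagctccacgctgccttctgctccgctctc
Kcnmb1 (chr11:33962763-33963062, plus strand): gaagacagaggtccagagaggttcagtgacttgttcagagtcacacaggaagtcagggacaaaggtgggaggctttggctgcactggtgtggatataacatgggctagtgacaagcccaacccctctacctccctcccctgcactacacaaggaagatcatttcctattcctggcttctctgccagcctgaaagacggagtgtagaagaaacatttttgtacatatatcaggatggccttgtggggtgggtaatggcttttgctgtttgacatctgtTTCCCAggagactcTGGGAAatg
Capitals mark matches, on either strand, to the letters TAATCC (a core bound by OTX and CRX factors), CACGTG (the E-box of MYC and MAX), TGGGAA (the core bound by RBPJ, the DNA-binding partner of N1ICD) or AAATCAC (a core bound by GFI1). No match overlapped another. The Kcnmb1 window held 2 matches to the RBPJ core, 1 on each strand, and the other 3 windows held none of the 4 motifs. Of 32851 mouse promoter windows of 300 bases, 7.06% held TAATCC, 7.15% CACGTG, 25.6% TGGGAA and 3.20% AAATCAC. Of the 29 channel genes named by rule, 22 had an entry, with 32 windows: 1 held TAATCC, 4 held CACGTG, 11 held TGGGAA and 0 held AAATCAC.

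Kcnj3 was called in all 6 comparisons, each with libraries that did not overlap. It encodes a subunit of the G protein-gated inward rectifier, through which G protein-coupled receptors quiet neurons. It lies on chromosome 2 (GRCm38, chr2:55435970-55598145, plus strand). Kcnj3 stood at 0.857, 1.05 and 1.62 CPM in the N1ICD tumours, 80.2, 91.8 and 48.6 CPM in the S100b-cell tumours, 8.34, 15.9 and 10.3 in the MYC/Otx2 tumours, and 170 and 301 CPM in the MYC/Gfi1 tumours. All 4 groups were separate, in the order N1ICD, MYC/Otx2, S100b-cell, MYC/Gfi1.
The log2 fold change of Kcnj3 was -7.63 ± 0.50 (SE) in N1ICD over MYC/Gfi1 tumours (edgeR adjusted p = 0.000375), the smallest adjusted p among the channel genes there. It was -5.95 ± 0.47 in N1ICD over S100b-cell tumours (edgeR adjusted p = 0.000736), and in N1ICD over MYC/Otx2 tumours -3.28 ± 0.46 (edgeR adjusted p = 0.00187). It was -4.35 ± 0.41 in MYC/Otx2 over MYC/Gfi1 tumours (edgeR adjusted p = 0.00237). These 4 calls held without each of the 11 libraries in turn. Between neighbours in the order, S100b-cell over MYC/Otx2 tumours had a log2 fold change of 2.67 ± 0.36 (edgeR adjusted p = 0.00222), and this call also held without each library. The last log2 fold change of Kcnj3, S100b-cell over MYC/Gfi1 tumours, was -1.68 ± 0.38 (edgeR adjusted p = 0.0375), and this call was lost in 7 of the 11 leave-outs. The adjusted p was 0.0505 without N1ICD replicate 2, 0.103, 0.0722 and 0.117 without S100b-cell replicates 1, 2 and 3, 0.0535 and 0.0606 without MYC/Otx2 replicates 1 and 3, and 0.211 without MYC/Gfi1 replicate 2.
The 9 neuronal markers summed to 125, 183 and 86 CPM in the N1ICD libraries, where Kcnj3 was lowest, and to 123 CPM in S100b-cell replicate 1, where it had 80.2 CPM. They summed to 526 and 204 CPM in S100b-cell replicates 2 and 3, 184, 516 and 288 CPM in the MYC/Otx2 libraries, and 646 and 3420 CPM in the MYC/Gfi1 libraries, where Kcnj3 was highest. Their part in the Kcnj3 differences was not tested. In a bulk tumour fewer cells of a type and less RNA per cell cannot be told apart.

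**Figure D1:**
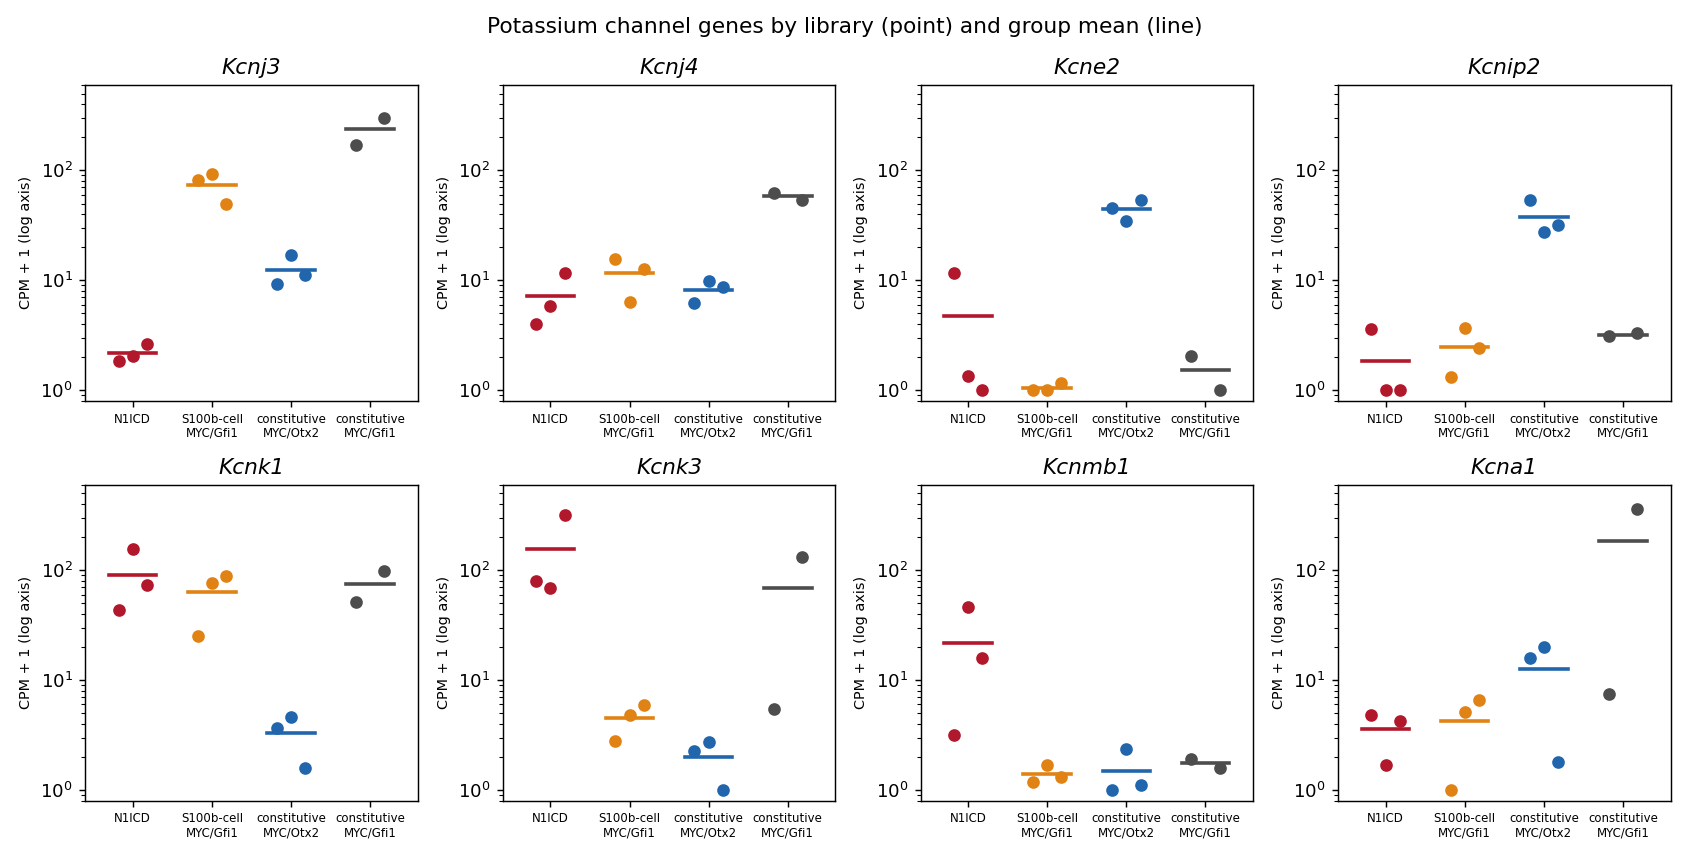
Level of 8 potassium channel genes in each library, as CPM + 1 on a log axis, with the models in columns from N1ICD to MYC/Gfi1; points are libraries and lines are group means. Kcnj3 separates all 4 models, from 0.857 to 1.62 CPM in N1ICD tumours to 170 and 301 CPM in MYC/Gfi1 tumours, while Kcna1 reaches 361 CPM in 1 MYC/Gfi1 library and 6.53 CPM in the other.

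The channel subunits that pair with Kcnj3 were mostly rare. Kcnj6, a frequent partner in neurons, had 10 counts over all 11 libraries, and Kcnj5, the partner in heart atrium, had 16, all in S100b-cell replicate 2. Neither passed the filter. Kcnj9, another neuronal partner, had 2.14, 0.349 and 1.62 CPM in the N1ICD tumours, 0.194, 2.63 and 2.19 CPM in the S100b-cell tumours, 6.07, 12.2 and 0 in the MYC/Otx2 tumours, and 1.40 and 111 CPM in the MYC/Gfi1 tumours. Its high value lay in 1 library, and Kcnj9 was not called in any comparison.

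Kcnj4, a strongly rectifying neuronal channel, was also lower in every model than in the MYC/Gfi1 tumours. It had 3.00, 4.88 and 10.6 CPM in the N1ICD tumours, 14.6, 5.33 and 11.8 CPM in the S100b-cell tumours, 5.23, 8.84 and 7.63 in the MYC/Otx2 tumours, and 61.1 and 52.9 CPM in the MYC/Gfi1 tumours. The MYC/Gfi1 libraries lay above all 9 others and close to each other. Its log2 fold change was -3.21 ± 0.57 in N1ICD over MYC/Gfi1 tumours (edgeR adjusted p = 0.0108), which held without each library in turn. It was -2.43 ± 0.54 in S100b-cell over MYC/Gfi1 tumours (edgeR adjusted p = 0.0372), a call lost in 8 of 11 leave-outs, with adjusted p up to 0.114 without MYC/Gfi1 replicate 2 and kept without each N1ICD library. It was -2.97 ± 0.55 in MYC/Otx2 over MYC/Gfi1 tumours (edgeR adjusted p = 0.021), lost without MYC/Otx2 replicates 1, 2 and 3 (adjusted p = 0.0855, 0.0551 and 0.0861) and without MYC/Gfi1 replicate 2 (0.0572).
Kcnj2, a strong inward rectifier of vessels, muscle and neurons, had 1.72, 3.83 and 0.406 CPM in the N1ICD tumours against 0 counts in each MYC/Otx2 library, at least 15.7-fold higher (edgeR adjusted p = 0.0241). Without MYC/Otx2 replicates 1, 2 and 3 in turn its adjusted p was 0.0549, 0.0545 and 0.0568. Kcnj10, the main inward rectifier of astrocytes, ranged from 0.116 to 24.0 CPM over the libraries and was not called. It was highest in N1ICD replicate 1, where 7 astroglial markers summed to 2770 CPM. Of this sum Slc1a3 and Aldoc supplied 1400 and 1030 CPM. In MYC/Gfi1 replicate 2 the markers summed to 5080 CPM, of which Aldoc supplied 4280 CPM, and Kcnj10 had 22.2 CPM.

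The Kcna to Kcnd voltage-gated subunits summed to 34.3, 33.5 and 35.7 CPM in the N1ICD tumours, 11.3, 123 and 89 CPM in the S100b-cell tumours, 45.9, 90.1 and 11.9 in the MYC/Otx2 tumours, and 83.9 and 1050 CPM in the MYC/Gfi1 tumours. MYC/Gfi1 replicate 2 lay above every other library, and replicate 1 lay within the range of the S100b-cell and MYC/Otx2 libraries. Of the 32 channel genes with at least 10 CPM in a MYC/Gfi1 library, 19 (59.4%) were at least 4-fold higher in replicate 2 than in replicate 1 and 3 (9.38%) at least 4-fold lower. Among all 9480 genes at that level the shares were 10.9% and 5.52%. Kcna1, a low-threshold subunit of axons, had 361 CPM in replicate 2 and 6.53 CPM in replicate 1. Kcnc1, a subunit for fast spiking, had 130 and 3.73 CPM there, and the sodium-activated channel Kcnt1 had 75.2 and 0.932 CPM. None of these 3 genes was called. All 3 were higher in replicate 2, as were the neuronal, granule cell, Purkinje cell, astroglial, oligodendrocyte, mural, endothelial and microglial sums. A shared direction over 2 libraries cannot tell these lists apart, and their part was not tested. Kcnmb2, an inactivating subunit of the calcium-activated channel of large conductance (BK), ran the other way, with 0.290 CPM in replicate 2 and 39.3 CPM in replicate 1. Kcnmb4, the neuronal BK subunit, had 43.1 and 0.233 CPM in these libraries and 0.776 to 12.7 CPM in the 9 others, and was not called.

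Kcnd2, the main A-type subunit of cerebellar granule cells, had 2.14, 0.349 and 1.62 CPM in the N1ICD tumours, 0.906, 11.7 and 20.2 CPM in the S100b-cell tumours, 12.3, 21.7 and 2.20 in the MYC/Otx2 tumours, and 37.6 and 186 CPM in the MYC/Gfi1 tumours. Kcnd2 had a log2 fold change of -6.37 ± 1.42 in N1ICD over MYC/Gfi1 tumours (edgeR adjusted p = 0.0223). The call was lost without N1ICD replicates 2 and 3 (adjusted p = 0.0689 and 0.0665) and without MYC/Gfi1 replicate 2 (0.0898). Kcnc4, a fast-gating subunit, had 1 count over the N1ICD tumours and 13.6 and 14.2 CPM in the MYC/Gfi1 tumours, which were 107 times higher (95% counting interval 18.9 to 4230, edgeR adjusted p = 0.043). It was lost in 8 of 11 leave-outs, with adjusted p up to 0.114 without N1ICD replicate 3, and kept without each MYC/Otx2 library.
Kcns1, a silent subunit that alters Kcnb channels, had 7.29, 1.05 and 15.8 CPM in the N1ICD tumours, 14.9, 5.46 and 8.52 CPM in the S100b-cell tumours, 0.282, 0 and 0 in the MYC/Otx2 tumours, and 2.68 and 12.1 CPM in the MYC/Gfi1 tumours. The MYC/Otx2 tumours were the low group, with 2 counts in all, and every other library lay above them. The N1ICD tumours were 91.4 times higher than the MYC/Otx2 tumours (counting interval 24.2 to 773, edgeR adjusted p = 0.0119), and the S100b-cell tumours 117 times higher (32.1 to 966, edgeR adjusted p = 0.0119). Both calls held without each library in turn. The MYC/Gfi1 tumours were 81.4 times higher than the MYC/Otx2 tumours (22.0 to 681, edgeR adjusted p = 0.0374), a call lost without S100b-cell replicates 2 and 3, each MYC/Otx2 library and MYC/Gfi1 replicate 2, with adjusted p up to 0.131 without the last.

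Among the Kcnh genes, Kcnh8 had 0 counts in each N1ICD and each MYC/Otx2 library, 0.0647, 0.346 and 0 CPM in the S100b-cell tumours, against 11.4 and 4.21 CPM in the MYC/Gfi1 tumours. Kcnh8 was at least 61.9-fold lower in the MYC/Otx2 than in the MYC/Gfi1 tumours (edgeR adjusted p = 0.0478), and this call was kept only without N1ICD replicates 1 and 2, with adjusted p up to 0.118 without MYC/Otx2 replicate 3. Kcnh7, a subunit of the ERG type that sets neuronal excitability, had 58.7, 2.79 and 2.84 CPM in the N1ICD tumours and 0.424, 0 and 0 CPM in the MYC/Otx2 tumours. The N1ICD tumours were 157 times higher (counting interval 52.7 to 770, edgeR adjusted p = 0.0148), with adjusted p = 0.0535 and 0.055 without MYC/Otx2 replicates 2 and 3. The size rested on N1ICD replicate 1: its log2 fold change was 7.19 with all libraries and 4.27 (edgeR adjusted p = 0.0437) without that one.

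**Figure D2:**
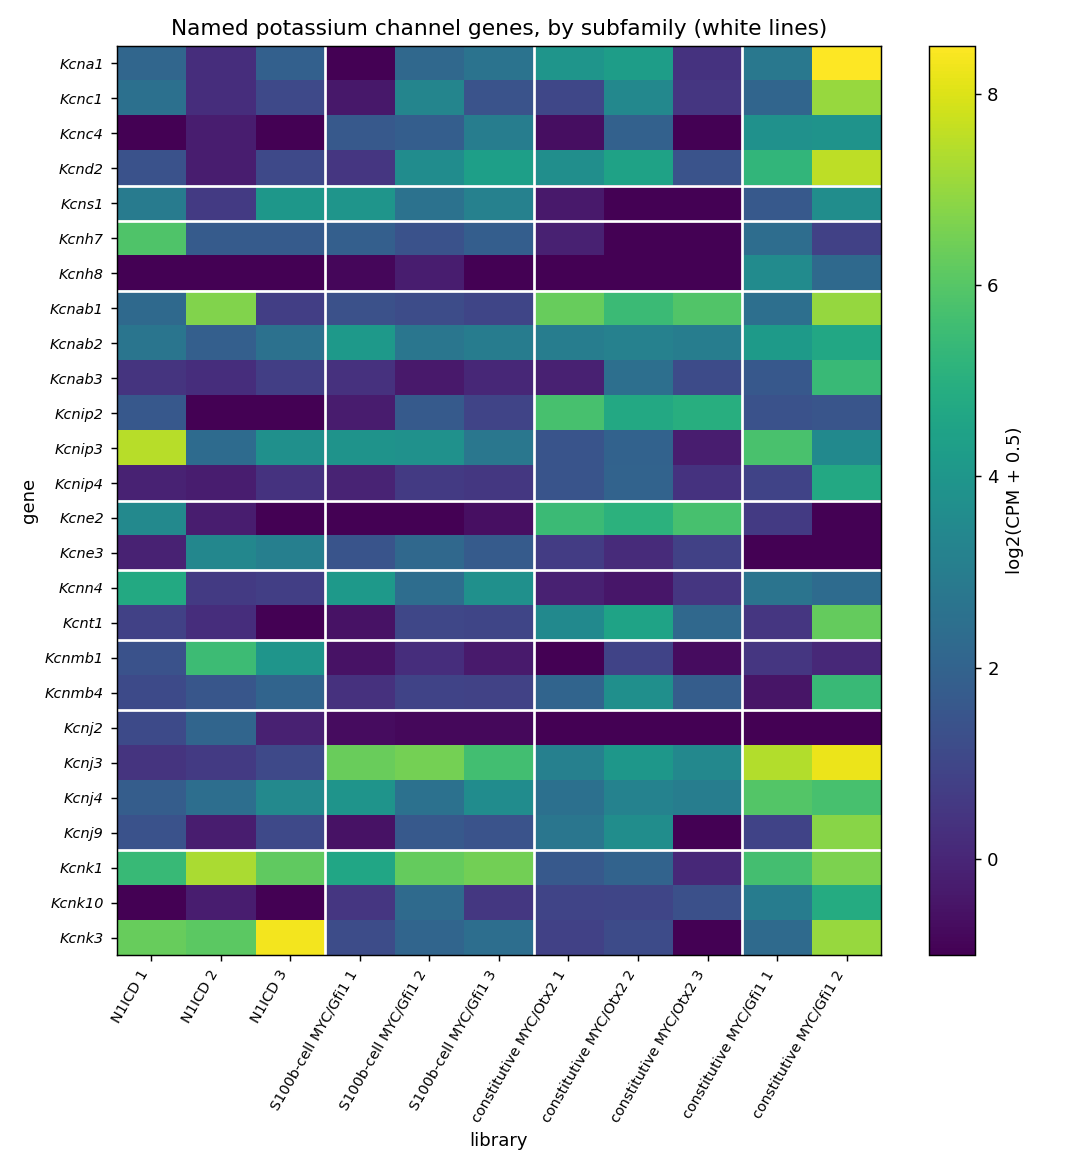
Level of 26 named potassium channel genes (rows) in the 11 libraries (columns, N1ICD at the left and MYC/Gfi1 at the right), coloured by log2(CPM + 0.5); white lines separate subfamilies and models. Kcnj3 and Kcnj4 are bright in both MYC/Gfi1 libraries, Kcne2 and Kcnip2 in the 3 MYC/Otx2 libraries, and Kcnk3 in the 3 N1ICD libraries and MYC/Gfi1 replicate 2.

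The MYC/Otx2 tumours had the highest levels of the accessory subunits Kcne2 and Kcnip2. Kcne2 (chr16:92292389-92298129), a small single-pass subunit known in mouse brain from the epithelium of the choroid plexus, had 10.7, 0.349 and 0 CPM in the N1ICD tumours, 0, 0 and 0.156 CPM in the S100b-cell tumours, 44.1, 33.9 and 52.5 in the MYC/Otx2 tumours, and 1.05 and 0 CPM in the MYC/Gfi1 tumours. The 3 MYC/Otx2 libraries lay above all 8 others. The S100b-cell tumours had 2 counts in all against 1038 in the MYC/Otx2 tumours, which were 933 times higher (counting interval 258 to 7710, edgeR adjusted p = 0.00874), and the call held without each library. The log2 fold change of Kcne2 was 6.27 ± 1.81 in MYC/Otx2 over MYC/Gfi1 tumours (edgeR adjusted p = 0.0679), and in N1ICD over MYC/Otx2 tumours -3.58 (edgeR adjusted p = 0.0791), so neither passed. Kcnj13, also a channel of the choroid plexus, had 0 counts in every library. The part of choroid plexus cells in the Kcne2 differences was not tested.
Kcnip2 (chr19:45791839-45816061), a calcium-binding subunit that speeds traffic of Kcnd channels, had 2.57, 0 and 0 CPM in the N1ICD tumours, 0.324, 2.70 and 1.41 CPM in the S100b-cell tumours, 52.5, 26.4 and 30.6 in the MYC/Otx2 tumours, and 2.10 and 2.32 CPM in the MYC/Gfi1 tumours. Here too the MYC/Otx2 libraries lay above all others. Its log2 fold change was -5.46 ± 1.17 in N1ICD over MYC/Otx2 tumours (edgeR adjusted p = 0.0116), which held without each library. It was -4.62 ± 1.03 in S100b-cell over MYC/Otx2 tumours (edgeR adjusted p = 0.0161), with adjusted p = 0.0639 without S100b-cell replicate 3 and 0.0568 without MYC/Otx2 replicate 1. It was 4.04 ± 1.20 in MYC/Otx2 over MYC/Gfi1 tumours (edgeR adjusted p = 0.0736) and did not pass. Of its pores, Kcnd2 is given above. Kcnd3 had 0.429, 0 and 3.25 CPM in the N1ICD tumours, 0.259, 2.70 and 1.72 CPM in the S100b-cell tumours, 5.93, 11 and 3.81 in the MYC/Otx2 tumours, and 1.17 and 5.96 CPM in the MYC/Gfi1 tumours, and was not called.
Kcnab1, a cytoplasmic subunit that binds Kcna channels, had 4.29, 102 and 1.22 CPM in the N1ICD tumours, 2.07, 1.80 and 1.49 CPM in the S100b-cell tumours, 78.0, 43.5 and 59.6 in the MYC/Otx2 tumours, and 5.01 and 128 CPM in the MYC/Gfi1 tumours. It was the channel gene with most counts in each MYC/Otx2 library, but N1ICD replicate 2 and MYC/Gfi1 replicate 2 lay above all 3 of them. Kcnab1 had a log2 fold change of -5.07 ± 1.54 in S100b-cell over MYC/Otx2 tumours (edgeR adjusted p = 0.0475), and the call was lost without each S100b-cell and each MYC/Otx2 library, with adjusted p up to 0.141 without S100b-cell replicate 3.
In the MYC/Otx2 libraries 8 photoreceptor markers summed to 108, 39.7 and 169 CPM, against at most 4.29 CPM in any library of the other models. Of these sums Sag, the gene of arrestin in rods, supplied 102, 30.0 and 160 CPM. Crx was at 4.10, 9.72 and 7.63 CPM there, and Rcvrn, Pde6b and Gngt1 were at 0 in all 3 MYC/Otx2 libraries. Kcnv2, the modifier subunit of photoreceptors, had 4 counts in the whole table, all in MYC/Otx2 libraries, and did not pass the filter. The part of photoreceptor transcripts in these differences was not tested.

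The other Kcnab and Kcnip genes were higher in the MYC/Gfi1 tumours or in 1 library. Kcnab2 had 6.00, 3.14 and 5.28 CPM in the N1ICD tumours, against 17.5 and 25.6 CPM in the MYC/Gfi1 tumours, a log2 fold change of -2.17 ± 0.51 (edgeR adjusted p = 0.0273). Without N1ICD replicates 2 and 3 its adjusted p was 0.0764 and 0.0653, and without MYC/Gfi1 replicate 2 it was 0.104. Kcnab3 had 0.857, 0.697 and 1.22 CPM in the N1ICD tumours, 0.776, 0.277 and 0.547 CPM in the S100b-cell tumours, against 2.56 and 43.1 CPM in the MYC/Gfi1 tumours. Kcnab3 had a log2 fold change of -4.61 ± 1.24 in N1ICD over MYC/Gfi1 tumours (edgeR adjusted p = 0.0408) and -5.38 ± 1.20 in S100b-cell over MYC/Gfi1 tumours (edgeR adjusted p = 0.0375). Without MYC/Gfi1 replicate 2 its values were -1.47 (adjusted p = 0.492) and -2.22 (0.376), and these calls were lost in 8 and 6 of 11 leave-outs. The N1ICD call was kept without MYC/Otx2 replicates 1 and 2 and MYC/Gfi1 replicate 1. The S100b-cell call was also lost without each S100b-cell library, N1ICD replicate 3 and MYC/Otx2 replicate 3. Kcnip4 had 0.429, 0.349 and 0.811 CPM in the N1ICD tumours, against 1.40 and 26.3 CPM in the MYC/Gfi1 tumours, a log2 fold change of -4.68 ± 1.20 (edgeR adjusted p = 0.0352). It was -1.39 (adjusted p = 0.476) without MYC/Gfi1 replicate 2. It was also lost without each N1ICD library, S100b-cell replicates 2 and 3 and MYC/Otx2 replicate 1, with adjusted p up to 0.0986. Within 1000 bases of their 3′ ends, Kcnab3, Kcne3, Kcnh7, Kcnip4, Kcnk1, Kcnmb1 and Kcnmb4 overlap an annotated gene on the opposite strand. Whether the counting used strand is not stated, so reads of such pairs could not be told apart if strand was not used.

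Tandem-pore channels had the largest sum of any channel subfamily in N1ICD replicates 2 and 3, at 225 and 399 CPM. They also had the largest sum in S100b-cell replicate 3, at 104 CPM, and held 151 CPM in N1ICD replicate 1. Kcnk1 (chr8:125995170-126030685), a weakly rectifying leak channel, had 42.0, 155 and 71.8 CPM in the N1ICD tumours, 24.3, 75.9 and 88.2 CPM in the S100b-cell tumours, 2.68, 3.61 and 0.578 in the MYC/Otx2 tumours, and 50.4 and 98.2 CPM in the MYC/Gfi1 tumours. The MYC/Otx2 libraries lay below all 8 others, which overlapped among themselves. Its log2 fold change was 5.29 ± 0.82 in N1ICD over MYC/Otx2 tumours (edgeR adjusted p = 0.00305) and 4.78 ± 0.80 in S100b-cell over MYC/Otx2 tumours (edgeR adjusted p = 0.0055). Both held without each library in turn. It was -5.02 ± 0.83 in MYC/Otx2 over MYC/Gfi1 tumours (edgeR adjusted p = 0.0159), with adjusted p = 0.0656 and 0.0587 without MYC/Otx2 replicates 1 and 3 and 0.0535 without MYC/Gfi1 replicate 2.
Kcnk3 (chr5:30588170-30625271), an acid-sensitive leak channel, had 78.0, 67.6 and 319 CPM in the N1ICD tumours, 1.81, 3.80 and 4.93 CPM in the S100b-cell tumours, 1.27, 1.74 and 0 in the MYC/Otx2 tumours, and 4.43 and 130 CPM in the MYC/Gfi1 tumours. The N1ICD libraries lay above all S100b-cell and MYC/Otx2 libraries, and MYC/Gfi1 replicate 2 lay among them. It held 55.7% of the channel counts in N1ICD replicate 3. Kcnk3 had a log2 fold change of 7.27 ± 1.47 in N1ICD over MYC/Otx2 tumours (edgeR adjusted p = 0.00909), which held without each library. It was 5.46 in N1ICD over S100b-cell tumours (edgeR adjusted p = 0.0801) and did not pass. The MYC/Otx2 over MYC/Gfi1 value was -6.06 ± 1.44 (edgeR adjusted p = 0.0426), and -2.14 (adjusted p = 0.368) without MYC/Gfi1 replicate 2. It was also lost without each S100b-cell and each MYC/Otx2 library, with adjusted p up to 0.128.
Kcnk10, a stretch- and heat-sensitive leak channel, had 1 count over the N1ICD tumours and 7.46 and 28.5 CPM in the MYC/Gfi1 tumours, which were 129 times higher (counting interval 22.9 to 5110, edgeR adjusted p = 0.0113). This call held without each library in turn.

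Kcnmb1 (chr11:33963013-33973641), the BK subunit of smooth muscle, marked the N1ICD tumours unevenly. It had 2.14, 45.3 and 15.0 CPM in the N1ICD tumours, 0.194, 0.692 and 0.313 CPM in the S100b-cell tumours, 0, 1.37 and 0.116 in the MYC/Otx2 tumours, and 0.932 and 0.581 CPM in the MYC/Gfi1 tumours. Every N1ICD library lay above all others. The N1ICD over MYC/Otx2 log2 fold change was 5.34 ± 1.37 (edgeR adjusted p = 0.0221), with adjusted p = 0.0791 without N1ICD replicate 2, 0.0634 without MYC/Otx2 replicate 1 and 0.0757 without MYC/Otx2 replicate 3. It did not pass in N1ICD over MYC/Gfi1 (log2 fold change 4.75, edgeR adjusted p = 0.0756) or N1ICD over S100b-cell tumours (5.66, edgeR adjusted p = 0.0794). The 7 mural cell markers summed to 283, 6570 and 2320 CPM in the N1ICD libraries and to at most 208 CPM in any other library, and Myh11, the smooth muscle myosin, had 0, 258 and 47.5 CPM in the N1ICD libraries. The order of the N1ICD libraries was the same for Kcnmb1, the mural sum, Pdgfrb, Rgs5, Cspg4, Acta2 and Myh11. The mural markers Tagln (30.0, 21.6 and 48.7 CPM) and Vtn (49.3, 3.14 and 58.4 CPM) were lowest in N1ICD replicate 2, where Kcnmb1 was highest. The part of mural cells in the Kcnmb1 difference was not tested. Kcna5, a subunit of vascular smooth muscle, had 0.429, 19.5 and 3.25 CPM in those libraries and at most 1.40 CPM elsewhere, and did not pass in N1ICD over MYC/Otx2 tumours (log2 fold change 5.12, edgeR adjusted p = 0.0883).
Kcnma1, the BK pore, had 0.857, 0.697 and 2.03 CPM in the N1ICD tumours, 2.65, 15.2 and 24.9 CPM in the S100b-cell tumours, 1.55, 5.36 and 0 in the MYC/Otx2 tumours, and 8.51 and 38.3 CPM in the MYC/Gfi1 tumours. It was not called. Kcnip1, the gene that Kcnmb1 overlaps on the opposite strand, had 27.4, 1.74 and 0 CPM in the N1ICD libraries. It was highest in N1ICD replicate 1, where Kcnmb1 was lowest.

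N1ICD replicate 1 held several channel genes that the other N1ICD libraries had at low levels. Kcnip3, a calcium sensor that binds Kcnd channels and DNA, had 177, 4.53 and 13 CPM in the N1ICD tumours, against 2.26, 3.49 and 0.347 CPM in the MYC/Otx2 tumours. The S100b-cell libraries had 6.3 to 14.2 CPM and the MYC/Gfi1 libraries 54.4 and 10.9 CPM. Its log2 fold change in N1ICD over MYC/Otx2 tumours was 4.99 ± 1.40 (edgeR adjusted p = 0.0316), and 2.10 (adjusted p = 0.148) without N1ICD replicate 1. The adjusted p was 0.094, 0.0687 and 0.0922 without MYC/Otx2 replicates 1, 2 and 3. Kcnn4, the calcium-activated channel of intermediate conductance known from blood cells and microglia, had 26.6, 1.05 and 1.22 CPM in the N1ICD tumours. It had 16.9, 4.77 and 13.1 CPM in the S100b-cell tumours and 5.83 and 4.50 CPM in the MYC/Gfi1 tumours. The MYC/Otx2 tumours had 0.424, 0.249 and 0.924 CPM. Kcnn4 had a log2 fold change of 4.11 ± 1.24 in N1ICD over MYC/Otx2 tumours (edgeR adjusted p = 0.0397) and 1.05 (adjusted p = 0.401) without N1ICD replicate 1. It was 4.39 ± 1.24 in S100b-cell over MYC/Otx2 tumours (edgeR adjusted p = 0.0362), and each of these calls was lost in 6 of 11 leave-outs, including each MYC/Otx2 library. The N1ICD call was also lost without S100b-cell replicates 1 and 3, and the S100b-cell call without each S100b-cell library, with adjusted p up to 0.118 and 0.114 in these. The 7 microglial markers summed to 154, 198 and 215 CPM in the N1ICD libraries, 465, 709 and 782 CPM in the S100b-cell libraries, and 363, 269 and 99.6 CPM in the MYC/Otx2 libraries, and their part was not tested. Kcnh7, given above, was also highest in N1ICD replicate 1, where the astroglial markers summed to 2770 CPM. It had 2.14 to 3.17 CPM in the S100b-cell libraries and 4.78 and 1.31 CPM in the MYC/Gfi1 libraries. The astroglial sums were 489 and 5080 CPM in the MYC/Gfi1 libraries, of which Aldoc supplied 256 and 4280 CPM. The part of these markers was not tested.
Kcne3, a subunit of epithelial Kcnq1 channels, had 0.429, 10.1 and 8.12 CPM in the N1ICD tumours, 2.27, 4.15 and 2.81 CPM in the S100b-cell tumours, 1.13, 0.623 and 1.27 in the MYC/Otx2 tumours, and 0 counts in both MYC/Gfi1 libraries. It was at least 32.1-fold higher in N1ICD than in MYC/Gfi1 tumours (edgeR adjusted p = 0.0192), with adjusted p = 0.0685 without MYC/Gfi1 replicate 2. It was at least 15.9-fold higher in S100b-cell than in MYC/Gfi1 tumours (edgeR adjusted p = 0.0434), a call kept only without N1ICD replicate 1 and lost in the other 10 leave-outs, with adjusted p up to 0.164.

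**Figure D3:**
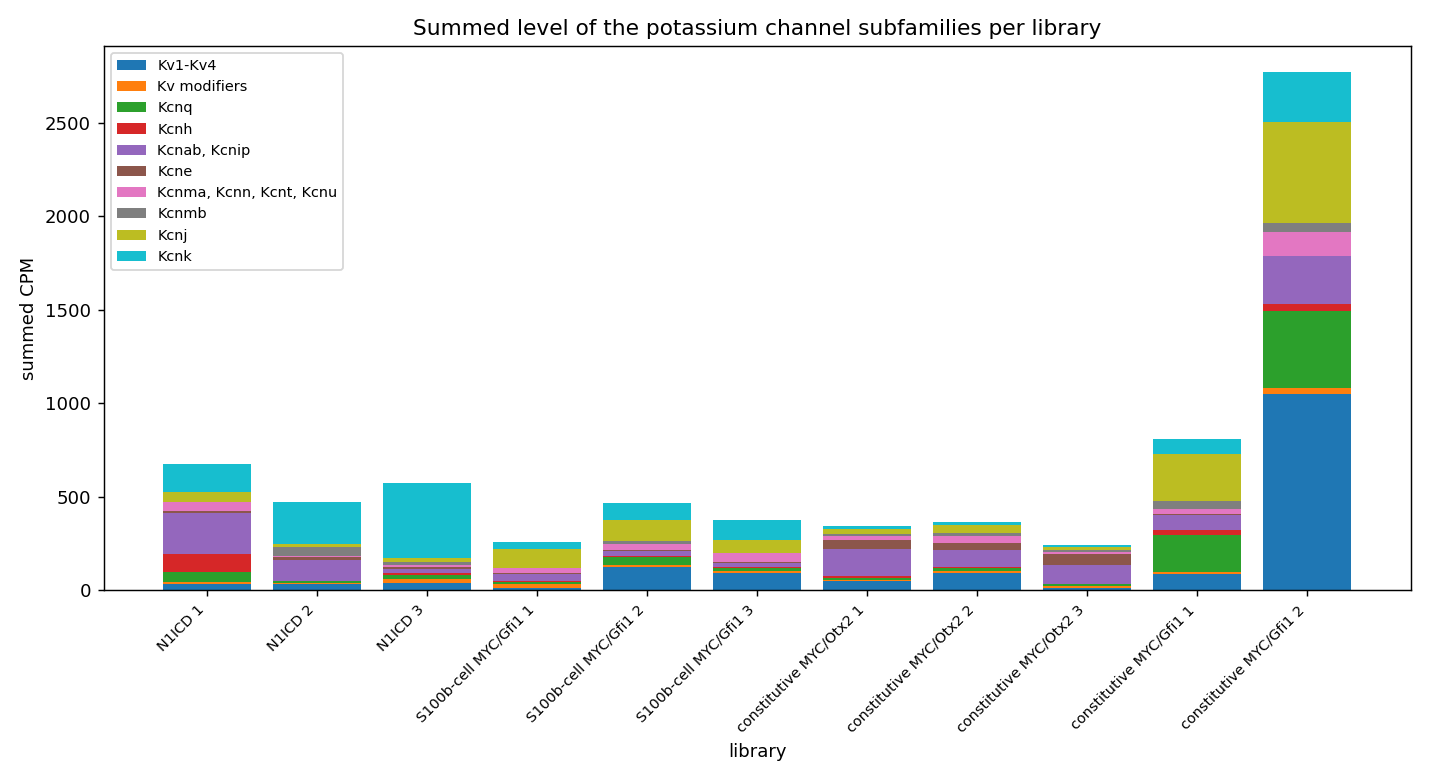
Summed CPM of the potassium channel genes in each library, stacked by subfamily, with N1ICD libraries at the left and MYC/Gfi1 libraries at the right; all 91 genes enter. Sums run from 238.7 to 674.8 CPM in the first 3 models, and MYC/Gfi1 replicate 2 reaches 2777 CPM, of which the Kcna to Kcnd subunits hold 1050 CPM.

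Summed over all 91 genes, channel transcripts reached 674.8, 469.6 and 572.9 CPM in the N1ICD tumours, 259.6, 466.8 and 373.5 CPM in the S100b-cell tumours, 340.7, 364.8 and 238.7 in the MYC/Otx2 tumours, and 2777 CPM in replicate 2 and 810 CPM in replicate 1 of the MYC/Gfi1 tumours. Both MYC/Gfi1 sums lay above every other. A 3′ library counts transcript ends, so these levels were not divided by length. The make-up differed: tandem-pore channels held 151, 225 and 399 CPM in the N1ICD libraries and 8.67 to 15.2 CPM in the MYC/Otx2 libraries. They held 37.2, 91.4 and 104 CPM in the S100b-cell libraries, and 82.2 and 270 CPM in the MYC/Gfi1 libraries. Kcnab and Kcnip subunits held 218, 113 and 21.5 CPM in the N1ICD, 34.4, 26.9 and 18.6 in the S100b-cell, 145, 91.8 and 102 in the MYC/Otx2, and 83 and 256 CPM in the MYC/Gfi1 libraries. These sums were not tested.

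The share of channel genes called was above that of all tested genes in the 3 comparisons with MYC/Gfi1 tumours and in N1ICD over S100b-cell tumours. It was below in N1ICD and in S100b-cell over MYC/Otx2 tumours. The excess rested on few calls in S100b-cell over MYC/Gfi1 (4) and N1ICD over S100b-cell tumours (1). Of the 56 tested channel genes, 10 were called in N1ICD over MYC/Gfi1 tumours (17.9%, against 11.5% of all genes), 1 higher (5.47% of all genes) and 9 lower (6.05%). S100b-cell over MYC/Gfi1 tumours gave 4 calls (7.14% against 4.35%), 1 higher (2.34% of all genes) and 3 lower (2.01%). MYC/Otx2 over MYC/Gfi1 tumours gave 6 (10.7% against 5.46%), 0 higher (2.43% of all genes) and 6 lower (3.03%). N1ICD over MYC/Otx2 tumours gave 11 (19.6% against 21.8%), 9 higher (12% of all genes) and 2 lower (9.76%). S100b-cell over MYC/Otx2 tumours gave 8 (14.3% against 17.9%), 5 higher (10% of all genes) and 3 lower (7.89%). N1ICD over S100b-cell tumours gave only Kcnj3 (1.79% against 1.21%), with 0 higher (0.808% of all genes) and 1 lower (0.407%).
The median log2 fold change of the tested channel genes was -1.14 in N1ICD over MYC/Gfi1, -1.66 in S100b-cell over MYC/Gfi1 and -2.66 in MYC/Otx2 over MYC/Gfi1 tumours, against -0.01, 0.01 and -0.14 over all genes. These 3 comparisons share the MYC/Gfi1 libraries. Without MYC/Gfi1 replicate 2 the medians were -0.46, -0.51 and -0.98, and 3, 0 and 1 channel genes were called in these comparisons (5.08%, 0% and 1.69%, against 4.94%, 0.374% and 1.34% of all genes), so the channel shares were then near those of all genes. For the 0, 5 channel genes had an unadjusted edgeR p under 0.05. Without N1ICD replicate 1 the first median was -2.27. For N1ICD over MYC/Otx2, S100b-cell over MYC/Otx2 and N1ICD over S100b-cell tumours the medians were -0.29, 0.36 and -0.17, against 0.14, 0.17 and -0.06 over all genes, and each changed sign when a library was left out. They were 0.73 without MYC/Otx2 replicate 2, -0.20 without S100b-cell replicate 2, and 0.26, 0.16 and 0.32 without N1ICD replicate 2 and S100b-cell replicates 1 and 2. With genes at 0 in a group set to their bound, the 6 medians were -1.14, -1.66, -2.69, -0.35, 0.23 and -0.04 in the same order.
Other libraries also moved these counts by over 1.5 times, and the calls over all genes moved with them. Without MYC/Gfi1 replicate 1, 16, 13 and 13 channel genes were called in N1ICD, S100b-cell and MYC/Otx2 over MYC/Gfi1 tumours (25.4%, 20.6% and 20.6%, against 13.5%, 12.2% and 13.3% of all genes). N1ICD over MYC/Gfi1 tumours had 4 calls without N1ICD replicate 2 and 4 without replicate 3, with 5.28% and 5.86% of all genes called. N1ICD over MYC/Otx2 tumours had 6, 7 and 5 calls without MYC/Otx2 replicates 1, 2 and 3, with 10.9%, 12.3% and 11.3% of all genes. N1ICD over S100b-cell tumours had 2 calls without N1ICD replicate 1 and without each MYC/Gfi1 library, with 1.54 to 1.74% of all genes. S100b-cell over MYC/Gfi1 tumours had 0, 1 and 0 calls without S100b-cell replicates 1, 2 and 3 (0.0794%, 0.908% and 0.365% of all genes), 1, 2 and 0 without MYC/Otx2 replicates 1, 2 and 3 (2.22%, 2.02% and 1.89%), and 2 without N1ICD replicate 3 (3.14%). In those with 0, edgeR gave 16 to 18 channel genes an unadjusted p under 0.05. S100b-cell over MYC/Otx2 tumours had 5, 5 and 4 calls without S100b-cell replicates 1, 2 and 3 (11.6%, 8.81% and 7.95% of all genes), and 4 and 5 without MYC/Otx2 replicates 1 and 3 (8.58% and 7.89%). MYC/Otx2 over MYC/Gfi1 tumours had 1, 3 and 1 calls without MYC/Otx2 replicates 1, 2 and 3 (0.573%, 1.53% and 0.43% of all genes), 3 without S100b-cell replicate 3 (2.54%), and 14 without N1ICD replicate 1 (9.3%).

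**Figure D4:**
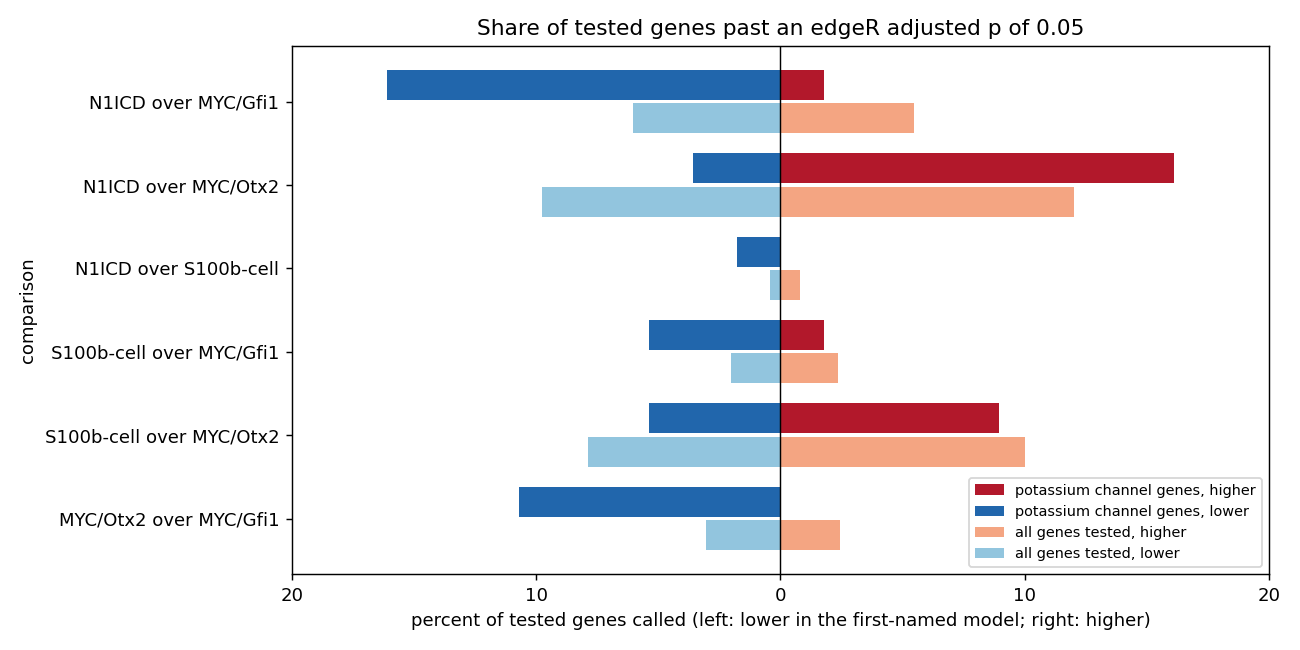
Percent of tested genes called higher or lower by edgeR in each of the 6 comparisons, for the 56 tested potassium channel genes and for all 15228 tested genes. The channel bars exceed the bars of all genes for calls lower than in MYC/Gfi1 tumours, and in MYC/Otx2 over MYC/Gfi1 tumours 6 channel genes were lower and 0 higher.

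Of 28 partner and potassium transport genes listed with the channels, 25 were tested. In N1ICD over MYC/Gfi1 tumours 4 fell (6.05% of all genes did). Among them were Nalcn (sodium leak channel), Adam22 (a Kcna-associated adhesion protein) and Dpp6 (a Kcnd accessory subunit). In MYC/Gfi1 replicates 1 and 2 Dpp6 had 15.0 and 457 CPM, Nalcn 26.5 and 10.3 CPM, and Adam22 94.0 and 59.1 CPM. In N1ICD over MYC/Otx2 tumours 5 rose (12% of all genes did): Hcn2 (pacemaker channel), Abcc8 and Abcc9 (sulfonylurea receptors), Cntnap2 (which gathers Kcna channels on axons) and Atp1b1 (sodium pump subunit). Cntnap2 had 215, 0.697 and 3.25 CPM in the N1ICD tumours and 1.98, 2.37 and 0.924 CPM in the MYC/Otx2 tumours (edgeR adjusted p = 0.0498), so the groups overlapped and only N1ICD replicate 1 was far above. Abcc9, known from mural cells, was the 1 list gene called in N1ICD over S100b-cell tumours (0.808% of all genes rose), with a log2 fold change of 4.91 ± 0.93 (edgeR adjusted p = 0.0406). Atp1b2 fell in S100b-cell over MYC/Gfi1 tumours (2.01% of all genes did), and Hcn2 rose in S100b-cell over MYC/Otx2 (10% of all genes) and fell in MYC/Otx2 over MYC/Gfi1 tumours (3.03%). The median log2 fold change of the list was -2.01 in N1ICD over MYC/Gfi1, -2.53 in S100b-cell over MYC/Gfi1 and -2.34 in MYC/Otx2 over MYC/Gfi1 tumours, against -0.01, 0.01 and -0.14 over all genes. In N1ICD over MYC/Otx2, S100b-cell over MYC/Otx2 and N1ICD over S100b-cell tumours it was -0.05, -0.23 and -0.27. Over all genes the medians there were 0.14, 0.17 and -0.06. All comparisons with MYC/Gfi1 tumours share those libraries, and the list medians were not taken without MYC/Gfi1 replicate 2. Atp1b1 had 41.85 and 475.5 CPM and Atp1b2 33.1 and 240 CPM in MYC/Gfi1 replicates 1 and 2.

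The other 35 channel genes did not pass the filter. Kcna7, Kcna10, Kcnj1, Kcnj11, Kcnj13 and Kcnk16 had 0 counts in all 11 libraries. The remaining 29 had 1 to 97 counts in total, the most in Kcng4, of which 89 lay in MYC/Gfi1 replicate 2. Of the 56 tested genes, 33 were called in no comparison. A call missed in these does not show equal levels, and the N1ICD libraries were the shallowest.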

How the data were processed

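Counts came from 3′ mRNA libraries (QuantSeq, forward kit) made with TRIzol-extracted RNA, with unique molecular identifiers added at second-strand synthesis, per the labels' protocols. The submitters' processing notes name STAR 2.4.1d, HTSeq 0.6.1 and the build mm10. Which annotation was used, whether strand was used and whether identifiers were collapsed is not stated in them, so intervals and floors cover counting error only. The deposited table holds raw counts per gene symbol, with no normalization by the authors. Nothing in the labels ties replicates to separate animals, so p-values measure the spread between these samples.

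Groups were taken from the titles. Of 38406 genes, 15228 passed filterByExpr in edgeR 4.0.16 (R 4.3.3). Counts were scaled by TMM and the 4 groups entered 1 quasi-likelihood fit (robust, common biological coefficient of variation 0.562), so the spread is shared. Tests were two-sided. Within each of 6 comparisons the Benjamini-Hochberg method was applied over all tested genes, and a gene was called at an adjusted p under 0.05. The SE is the log2 fold change over the square root of F. Fitted folds of genes with under 4 counts in a group depend on the prior count, so a ratio of summed counts per scaled total, or a bound at 3 counts over the group, is given in their place. The steps were tested on simulated counts.

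The members and lists were chosen with earlier results of these data known. Genes named were those called in any comparison, the 12 highest by the mean of group means, and the highest of each subfamily. Some genes that this rule names are not reported here. Kcna5, Kcna10, Kcna7, Kcnd3, Kcng4, Kcnip1, Kcnj1, Kcnj5, Kcnj6, Kcnj10, Kcnj11, Kcnj13, Kcnk16, Kcnma1, Kcnmb2 and Kcnv2 were named after their values were seen. Protein sequences were not used here. Positions are from GENCODE on GRCm38, also called mm10. Alternatives were DESeq2 1.42.0, limma-voom (limma 3.58.1), other scalings, no filter, fits of 2 groups, a replicate block and leaving out each library.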

Additional observations from a re-analysis of the deposited data

How the results depend on the processing

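Of the 40 calls of named channel genes, 9 held under every alternative tried: Kcnj3 in N1ICD over MYC/Gfi1, N1ICD over S100b-cell, S100b-cell over MYC/Otx2 and MYC/Otx2 over MYC/Gfi1 tumours, Kcnk1 in N1ICD and in S100b-cell over MYC/Otx2 tumours, Kcnip2 in N1ICD over MYC/Otx2 tumours, and Kcne2 and Kcns1 in S100b-cell over MYC/Otx2 tumours. Over 709 gene values, 522 kept their call, 187 lost it and 0 changed sign. Kcnj3 in N1ICD over MYC/Otx2 tumours was lost with limma-voom (adjusted p = 0.0658). Other scalings gave the same counts of calls. In the order N1ICD over MYC/Gfi1, N1ICD over MYC/Otx2, N1ICD over S100b-cell, S100b-cell over MYC/Gfi1, S100b-cell over MYC/Otx2 and MYC/Otx2 over MYC/Gfi1 tumours, the counts were 10, 11, 1, 4, 8 and 6 with edgeR, 19, 16, 5, 16, 10 and 20 with DESeq2, and 6, 6, 1, 7, 8 and 9 with limma-voom. With DESeq2 the channel shares were 33.9, 28.6, 8.93, 28.6, 17.9 and 35.7%, against 22.4, 30.9, 9.66, 15.7, 28.8 and 17.9% of all genes. With limma-voom they were 10.7, 10.7, 1.79, 12.5, 14.3 and 16.1%, against 6.71, 14.7, 0.86, 9.18, 24.3 and 9.13%. Fits of the 2 groups alone tested 38, 24, 34, 54, 45 and 42 channel genes. By edgeR they called 1, 7, 1, 0, 13 and 6, with 21 at an unadjusted p under 0.05 beside the 0. The channel shares were 2.63, 29.2, 2.94, 0, 28.9 and 14.3%, against 0.122, 26.7, 0.636, 0, 33.9 and 2.71% of all genes. Leaving out each library in turn gave 3 to 16, 5 to 13, 1 to 2, 0 to 13, 4 to 11 and 1 to 14. A group left with 1 library is assumed to vary like the others. The cause of these shifts was not tested.

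No label says that replicate numbers pair the samples. Over 15 pairs with the same number, deviations from group means correlated from -0.169 to 0.187, and 3 passed 0.1. Pairs with different numbers ran from -0.268 to 0.268. Such deviations cancel within a group, so these values cannot show whether the numbers pair the samples. With the replicate block, edgeR called 4, 10, 1, 0, 9 and 3 channel genes in the same order. Beside the 0, 13 had an unadjusted edgeR p under 0.05. The channel shares were 7.14, 17.9, 1.79, 0, 16.1 and 5.36%, against 5.18, 14.5, 0.387, 0.67, 12.5 and 1.37% of all genes.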
